A study of Homo sapiens with 6 samples.

Results

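This account covers 10 human genes for short non-coding RNAs that work in ribonucleoprotein particles: the 4 vault RNAs (VTRNA1-1, VTRNA1-2, VTRNA1-3 and VTRNA2-1), the 4 Y RNAs (RNY1, RNY3, RNY4 and RNY5), and RMRP and RPPH1, the RNA parts of RNase MRP and RNase P. They were 10 of 33616 genes that the platform annotation names on features with 1 gene symbol. The genes were chosen by family, at a time when results of these arrays were already known, and the feature read for each gene was selected on its mean log2 value over all 6 arrays. The count of differences among them is therefore no independent evidence that these families differ from other genes.

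The arrays were made from Caco-2, a human colon carcinoma line often taken as an intestinal epithelial model. One group of 3 arrays overexpressed apoM and the other, of 3 arrays, was labelled NC; the labels do not spell NC out, and how apoM was raised, and whether a group is 1 clone, is not given in the sources used here. Apolipoprotein M, encoded by APOM, carries sphingosine-1-phosphate on high-density lipoprotein, and the comparison asks how expression differs between cells with different apoM levels. Nothing in the labels ties the replicates to separate cultures, so each p-value sets a difference against the array-to-array spread, part or all of which may be technical. In bulk RNA, more of an RNA per cell and more cells that hold it cannot be told apart.

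The VTRNA1 RNAs sit in the vault, a large cytoplasmic particle whose shell is built from the major vault protein, and most copies lie outside it. Y RNAs bind the Ro60 and La proteins and are known for roles in RNA quality control and in the start of DNA replication. RMRP is the catalytic RNA of RNase MRP, which cuts precursor ribosomal RNA, and RPPH1 that of RNase P, which trims the leader from precursor transfer RNA. RNA polymerase III transcribes all 10 genes, from promoter elements inside the gene for vault RNAs and mainly from elements upstream of the gene for Y RNAs, RMRP and RPPH1.

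Each array gave values for 135750 features; its median lay between 4.48 and 4.53 and its maximum at 19.93. APOM was at 15.49, 15.56 and 15.85 with apoM overexpression, against 5.38, 5.84 and 6.41 in NC, as the labels say. None of 9 epithelial, 7 fibroblast, 5 leukocyte or 5 endothelial markers measured passed the test. The epithelial markers ran from -0.02 for EPCAM to 0.61 for KRT18 in their differences, with a median of 0.10. KRT18 (adjusted p = 0.0850) and KRT8 (0.48, adjusted p = 0.153) had all 3 apoM overexpression arrays above NC. This held for 2 of 9 epithelial, 2 of 7 fibroblast, 0 of 5 leukocyte and 1 of 5 endothelial markers, and for 17.3% of all genes. All 3 lay below NC for EPCAM and for 1 fibroblast marker, and for 7.08% of all genes. The part of these markers in the results below was not tested. Along the first principal component of all genes tested, with 51.1% of the variance, apoM overexpression replicates 1, 2 and 3 lay at 41.9, 39.6 and 24.3. NC replicates 1, 2 and 3 lay at -59.6, -39.0 and -7.11, so that NC replicate 3 stood nearest to the apoM overexpression arrays. All values below are log2 values as deposited, or differences of such values, and a level on one feature cannot be set against that on another.

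Most of the 10 RNAs were brighter with apoM overexpression. VTRNA1-1, VTRNA1-2, VTRNA1-3, RNY1 and RPPH1 rose, by 2.78 to 5.88 times, and none fell (limma, adjusted p under 0.05 over all genes tested). RMRP, RNY3, RNY4 and RNY5 had positive differences that did not pass, with adjusted p from 0.0528 to 0.0845, and VTRNA2-1 had a difference of 0.02. The count was thus 5 of 10, where 1.70% of all genes tested rose. The 3 apoM overexpression arrays lay above the 3 NC arrays in 8 of 10, where this held for 17.3% of all genes. The median difference of the 10 was 1.46, against 0.09 over all genes tested.

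**Figure D1:**
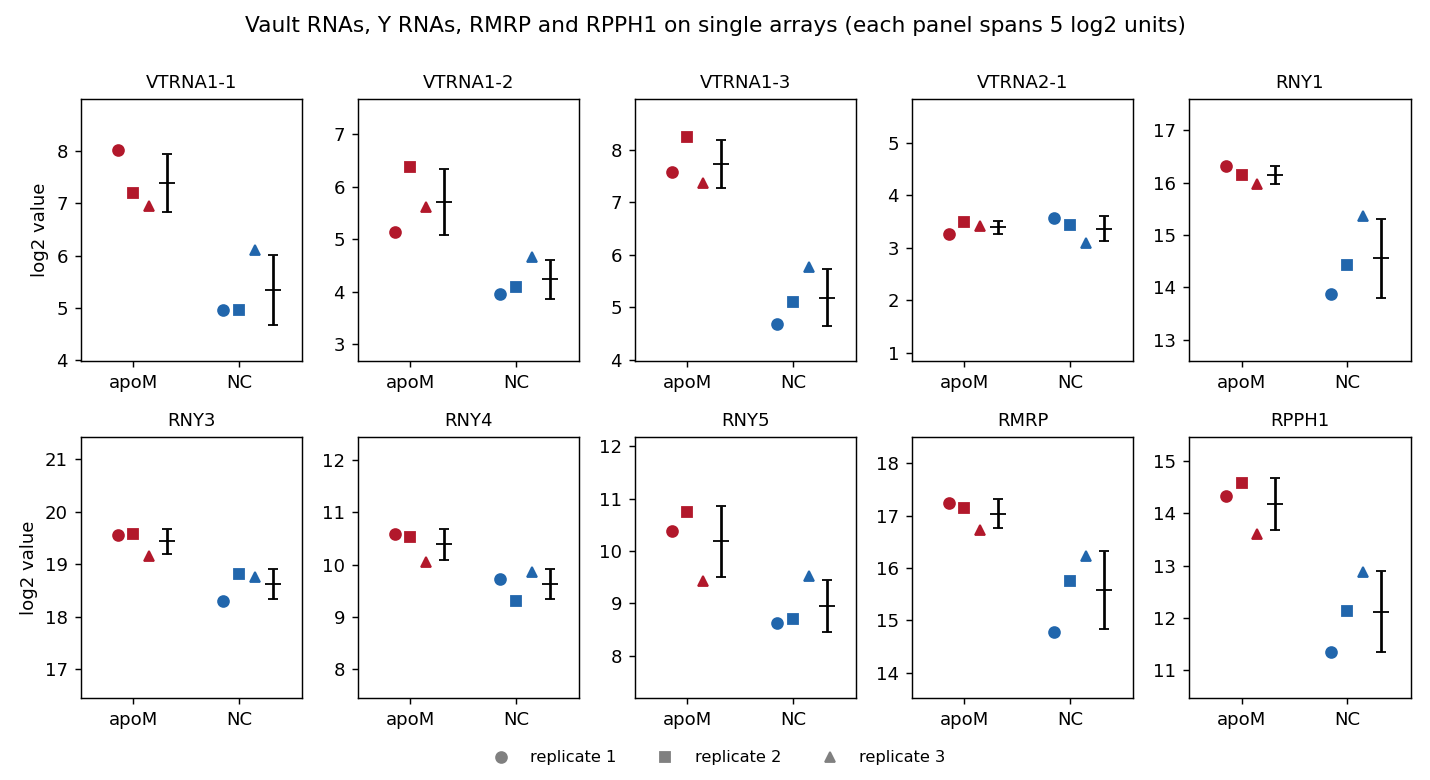
Log2 value (y axis, each panel spanning 5 log2 units) of each of the 10 RNAs on the 3 apoM overexpression arrays (red) and the 3 NC arrays (blue); symbols mark the replicate number, and black bars give mean and SD. In 8 panels every apoM overexpression array lies above every NC array; VTRNA2-1 and RNY5 overlap.

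Among the vault RNAs, the 3 genes of the VTRNA1 group rose together. VTRNA1-3 read 7.59, 8.26 and 7.37 with apoM overexpression, against 4.68, 5.10 and 5.77 in NC. The lowest apoM overexpression array lay 1.603 above the highest NC array, the widest gap of any of the 10. The difference was 2.55 with a standard error of 0.30 (95% interval 1.89 to 3.22, limma adjusted p = 0.0127), a 5.88-fold rise. The call was lost without apoM overexpression replicate 1, apoM overexpression replicate 2 or NC replicate 2 (adjusted p = 0.0702, 0.0662 and 0.0756), while the difference stayed between 2.30 and 2.85.

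VTRNA1-1, the vault RNA known to bind the autophagy receptor p62, read 8.02, 7.19 and 6.96 with apoM overexpression, against 4.95, 4.96 and 6.11 in NC. NC replicate 3 was the high NC array, and the groups did not overlap. VTRNA1-1 rose by 2.05 (SE 0.35, 95% interval 1.27 to 2.83, adjusted p = 0.0298), or 4.14-fold. Leaving out apoM overexpression replicate 3 or NC replicate 3 kept the call (adjusted p = 0.0466 and 0.0044), and leaving out any of the other 4 arrays ended it (adjusted p from 0.1055 to 0.123).

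VTRNA1-2, whose mean lay at the 44.4 percentile of genes tested, read 5.14, 6.39 and 5.61 with apoM overexpression, against 3.96, 4.10 and 4.66 in NC. The apoM overexpression arrays spread over more than 1 log2 unit and still all lay above NC. The rise was 1.48 (SE 0.30, 95% interval 0.80 to 2.16, adjusted p = 0.0424), a 2.78-fold difference. It passed without NC replicate 3 (adjusted p = 0.0174) and in none of the other 5 fits with an array left out, where adjusted p ran from 0.0873 to 0.153.

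VTRNA2-1, also called nc886, is known to bind the kinase PKR and lies apart from the VTRNA1 group on the same chromosome. It read 3.26, 3.50 and 3.41 with apoM overexpression, against 3.57, 3.43 and 3.10 in NC. The groups overlapped, and only 8.56% of genes tested had a mean as low or lower. It was therefore dim on all 6 arrays, and the deposited table gives no background level to set it against. The difference was 0.02 (SE 0.17, 95% interval -0.36 to 0.41, adjusted p = 0.965).

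The differences between vault RNAs were compared as the log2 value of one minus that of another on each array, with an exact two-sided permutation test of 3 arrays against 3, which cannot go below 0.1. In all, 9 pairs were compared in the 3 families, picked with their values known, and no pair could pass, so the values are a description. VTRNA1-3 minus VTRNA1-2 ran from 1.76 to 2.45 with apoM overexpression, against 0.73 to 1.11 in NC, without overlap (difference of the differences 1.08, exact p = 0.1, adjusted over the pairs 0.15). VTRNA1-3 minus VTRNA1-1 overlapped between the groups (0.51, exact p = 0.4). VTRNA1-2 was dim in NC, at 3.96, 4.10 and 4.66, where array medians lay between 4.48 and 4.53. Whether its difference is compressed there was not tested. Differences of the VTRNA1 genes from VTRNA2-1 add little to their own values, since VTRNA2-1 was dim and nearly level. The 3 genes of the VTRNA1 group are close in sequence, so how far their readings are separate is uncertain.

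All 4 Y RNAs had positive differences, and RNY1 alone passed. RNY1 read 16.32, 16.15 and 15.97 with apoM overexpression, against 13.87, 14.44 and 15.36 in NC. The apoM overexpression arrays lay within 0.35 of one another and the NC arrays spread over 1.49, with NC replicate 1 lowest and NC replicate 3 highest. RNY1 rose by 1.59 (SE 0.32, 95% interval 0.88 to 2.30, adjusted p = 0.0398), or 3.01-fold. It passed without NC replicate 3 (adjusted p = 0.0038) and in none of the other 5 fits with an array left out, where adjusted p ran from 0.0780 to 0.149.

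RNY3 read 19.56, 19.59 and 19.16 with apoM overexpression, against 18.29, 18.81 and 18.75 in NC. The groups did not overlap, but the feature lay only 0.34 to 1.64 below the array maximum, where differences can be compressed. Its difference was 0.82 (SE 0.20, adjusted p = 0.0606), and it passed without NC replicate 3 (adjusted p = 0.0499). RNY4 read 10.58, 10.53 and 10.05 with apoM overexpression, against 9.72, 9.31 and 9.86 in NC. These groups lay 0.19 apart, with a difference of 0.76 (SE 0.21, adjusted p = 0.0834).

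RNY5 read 10.38, 10.74 and 9.43 with apoM overexpression, against 8.63, 8.69 and 9.52 in NC. Here apoM overexpression replicate 3 lay below NC replicate 3, so the groups overlapped. The difference was 1.23 (SE 0.34, 95% interval 0.47 to 1.99, adjusted p = 0.0845), with adjusted p = 0.0307 without NC replicate 3. RNY1 minus RNY4 ran from 5.61 to 5.92 with apoM overexpression, against 4.14 to 5.50 in NC (exact p = 0.1), and RNY1 overlapped with RNY3 and with RNY5 in this measure (exact p = 0.2 and 0.4).

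Y RNAs have many pseudogenes, copies scattered over the genome whose probes may read the parent RNA. The platform names 50 Y RNA pseudogenes, and 6 rose, 1 fell and 43 did not pass, with a median difference of 0.34. Over all genes tested 1.70% rose and 0.357% fell, and 5.34% rose among other short non-coding genes, a class described further on that holds these pseudogenes too. RNY1P11 was at 9.26, 8.67 and 9.19 with apoM overexpression, against 7.08, 6.75 and 8.06 in NC, and rose by 1.74 (SE 0.31, adjusted p = 0.0316). RNY4P13 rose by 1.22 (SE 0.21, adjusted p = 0.0310). RNY1P9 was the one that fell, by 1.01 (SE 0.21, adjusted p = 0.0404), with 6.46, 5.98 and 6.56 with apoM overexpression, against 7.63, 7.14 and 7.27 in NC. RNY3P1, which lay 0.39 to 1.29 below the array maximum, had a difference of 0.62 (adjusted p = 0.0776). These 4 pseudogenes were picked with their values seen. Of the 50, only 1 has a gene ID in the platform annotation, so which RNA a feature reads is uncertain for the rest.

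RPPH1 rose, and the difference of RMRP was just short of the threshold. RPPH1 read 14.33, 14.58 and 13.61 with apoM overexpression, against 11.34, 12.14 and 12.88 in NC. The NC arrays spread over 1.54 log2 units, and the groups lay 0.73 apart. The rise of RPPH1 was 2.06 (SE 0.37, 95% interval 1.23 to 2.88, adjusted p = 0.0316), or 4.16-fold. The call held when apoM overexpression replicate 3 or NC replicate 3 was dropped (adjusted p = 0.0421 and 0.0055), and ended when any of the other 4 arrays was (adjusted p from 0.0931 to 0.129).

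RMRP read 17.25, 17.14 and 16.72 with apoM overexpression, against 14.78, 15.76 and 16.23 in NC. All 3 apoM overexpression arrays lay above NC, with a gap of 0.50. The difference was 1.45 (SE 0.32, 95% interval 0.72 to 2.17, adjusted p = 0.0528), just above the threshold of 0.05, and adjusted p was 0.0108 without NC replicate 3. RMRP passed in limma with the mean of its features (adjusted p = 0.0259), genes above the median level (0.0311), trend and robust (0.0344) and array weights (0.0292). It did not pass with quantile normalization (0.0674), array medians subtracted (0.0528), all features (0.112), replicate number as a block (0.0892) or centring on short genes (0.0589). On the brighter feature of each gene, RPPH1 minus RMRP ran from -3.11 to -2.56 with apoM overexpression, against -3.62 to -3.35 in NC. The ranges did not overlap (exact p = 0.1, adjusted over the pairs 0.15).

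Both genes have a second feature, without a gene ID. The second RMRP feature read 6.90, 7.06 and 6.65 with apoM overexpression, against 4.97, 4.99 and 5.57 in NC, a difference of 1.69. The second RPPH1 feature read 5.45, 5.64 and 5.22 with apoM overexpression, against 3.86, 3.94 and 4.87 in NC, a difference of 1.21. On both, the groups did not overlap. Here RMRP had the larger difference, the reverse of the order on the brighter features. Which of these genes differed more therefore depends on the feature read. Tested over all 135750 features, where none of the 10 genes passed on the feature used above (adjusted p from 0.0583 to 0.976), these second features had adjusted p = 0.0583 and 0.106.

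**Figure D2:**
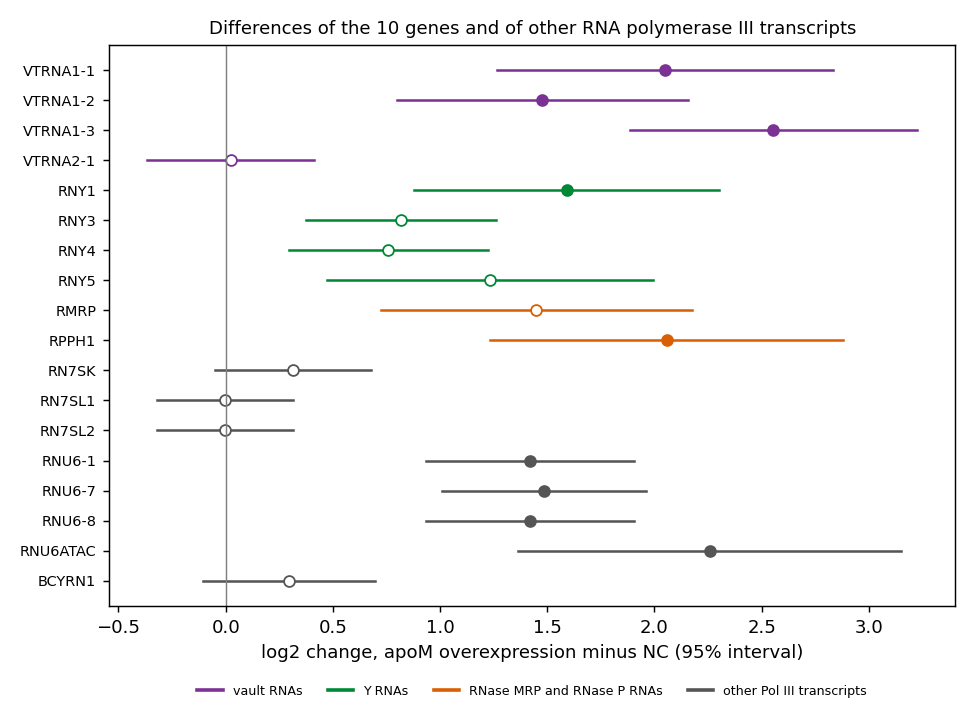
Log2 difference, apoM overexpression minus NC, with its 95% interval (x axis) for the 10 RNAs and for 8 other RNA polymerase III transcripts (rows); filled points passed the limma test and open points did not. The intervals of VTRNA2-1, RN7SK, RN7SL1, RN7SL2 and BCYRN1 include 0.

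Other RNA polymerase III transcripts rose or did not pass, and RN7SK, RN7SL1 and RN7SL2 among them lay at or near the array maximum. Of 8 measured, RNU6ATAC, RNU6-7, RNU6-1 and RNU6-8 rose and none fell, against 1.70% of all genes that rose, with a median difference of 0.87. Some of these features share their values or sit at the maximum, and 5 distinct readings below the maximum remain, of which 3 rose, with a median of 1.42. RNU6ATAC, the U6 counterpart of the minor spliceosome, read 8.54, 8.83 and 7.58 with apoM overexpression, against 5.33, 5.99 and 6.86 in NC, and rose by 2.26 (SE 0.40, adjusted p = 0.0310). U6 snRNA on the RNU6-7 feature rose by 1.48 (SE 0.21, adjusted p = 0.0192). RNU6-1 and RNU6-8 carried identical values on every array, with a difference of 1.42, and count as 1 reading of near-identical copies. RNU6-7 was counted apart only because its values differ, so U6 is counted more than once among the 3 readings that rose. RN7SL1 and RN7SL2, the RNA of the signal recognition particle, lay at the array maximum on all 6 arrays, where no difference can be read. RN7SK, which restrains the elongation factor P-TEFb, lay only 0.03 to 0.61 below the maximum, where differences can be compressed. It is still counted among the 5 readings. RN7SK had a difference of 0.31 (adjusted p = 0.333), and BCYRN1 one of 0.30 (adjusted p = 0.409).

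None of the mRNAs of proteins listed as partners of these RNAs passed the test. The values of these proteins, here and below, are mRNA levels, and protein was not measured. Of 53 listed, 48 were measured and 0 passed in limma, where 2.06% of all genes passed in either direction. An unadjusted limma p under 0.05 was found for 11 of the 48, where 19.1% of all genes had one. These were 5 of 11 RNase MRP and RNase P proteins, 3 of 3 mitochondrial RNase P proteins and 3 of 18 RNA polymerase III initiation factors. The lists of Y RNA binding, vault RNA binding and processing, and vault proteins had 0. The median difference of the 48 was 0.18. Among the 11 proteins of RNase MRP and RNase P, 9 had positive differences, with a median of 0.47. Of all 33616 genes tested, 21153 had positive differences. RPP21 was at 8.61 ± 0.22 with apoM overexpression and 7.61 ± 0.70 in NC (SD, n = 3 each; difference 1.004, adjusted p = 0.111), POP4 differed by 0.71 (adjusted p = 0.123) and POP7 by 0.55 (adjusted p = 0.0930). POP1, which encodes the largest protein of both enzymes, had a difference of -0.08. Mitochondrial RNase P, made of proteins alone and without RPPH1, gave 1.20 for HSD17B10 (adjusted p = 0.0930), 0.60 for TRMT10C (adjusted p = 0.185) and 0.59 for PRORP (adjusted p = 0.0901).

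The mRNAs of proteins that bind Y RNAs and vault RNAs had differences near 0. RO60, which encodes the Ro60 protein, was at 11.15 ± 0.33 with apoM overexpression and 11.30 ± 0.31 in NC (SD, n = 3 each). SSB, which encodes the La protein, was at 18.06 ± 0.11 with apoM overexpression and 17.96 ± 0.11 in NC (SD, n = 3 each). The 10 genes measured from the list of Y RNA binding proteins had a median difference of -0.02. PUF60 was at 0.33, and HNRNPK at -0.29 on a dim feature without a gene ID. ZBP1, at 0.18 and dim (13.5 percentile of genes tested), was listed by its symbol. That its product binds Y RNAs is not established here. The 6 proteins that bind or process vault RNAs had a median of -0.01, among them EIF2AK2, which encodes PKR, at -0.25, SQSTM1, which encodes p62, at 0.13 and DICER1 at -0.18. PARP4, a poly(ADP-ribose) polymerase of the vault, differed by 0.24 (adjusted p = 0.429); MVP and TEP1 were not analysed here.

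The mRNAs of factors that place RNA polymerase III on its promoters differed in both directions. Of 18 measured, 12 had positive differences, near the share over all genes (21153 of 33616), and the median was 0.18. BDP1, a subunit of TFIIIB, was at 9.82 ± 0.28 with apoM overexpression and 10.51 ± 0.14 in NC (SD, n = 3 each; difference -0.70, adjusted p = 0.0733). TBP, which encodes the TATA-binding protein, was at 8.97 ± 0.14 with apoM overexpression and 9.39 ± 0.09 in NC (difference -0.42, adjusted p = 0.174). In these 2 genes all 3 apoM overexpression arrays lay below NC, which held for 7.08% of all genes. In 3 others, GTF3A, SNAPC1 and MAF1, all 3 lay above NC, which held for 17.3% of all genes. GTF3C5, a subunit of the TFIIIC complex that binds promoters inside genes, had a difference of 0.48 (adjusted p = 0.195), and MAF1, a repressor of the polymerase, one of 0.34 (adjusted p = 0.278).

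**Figure D3:**
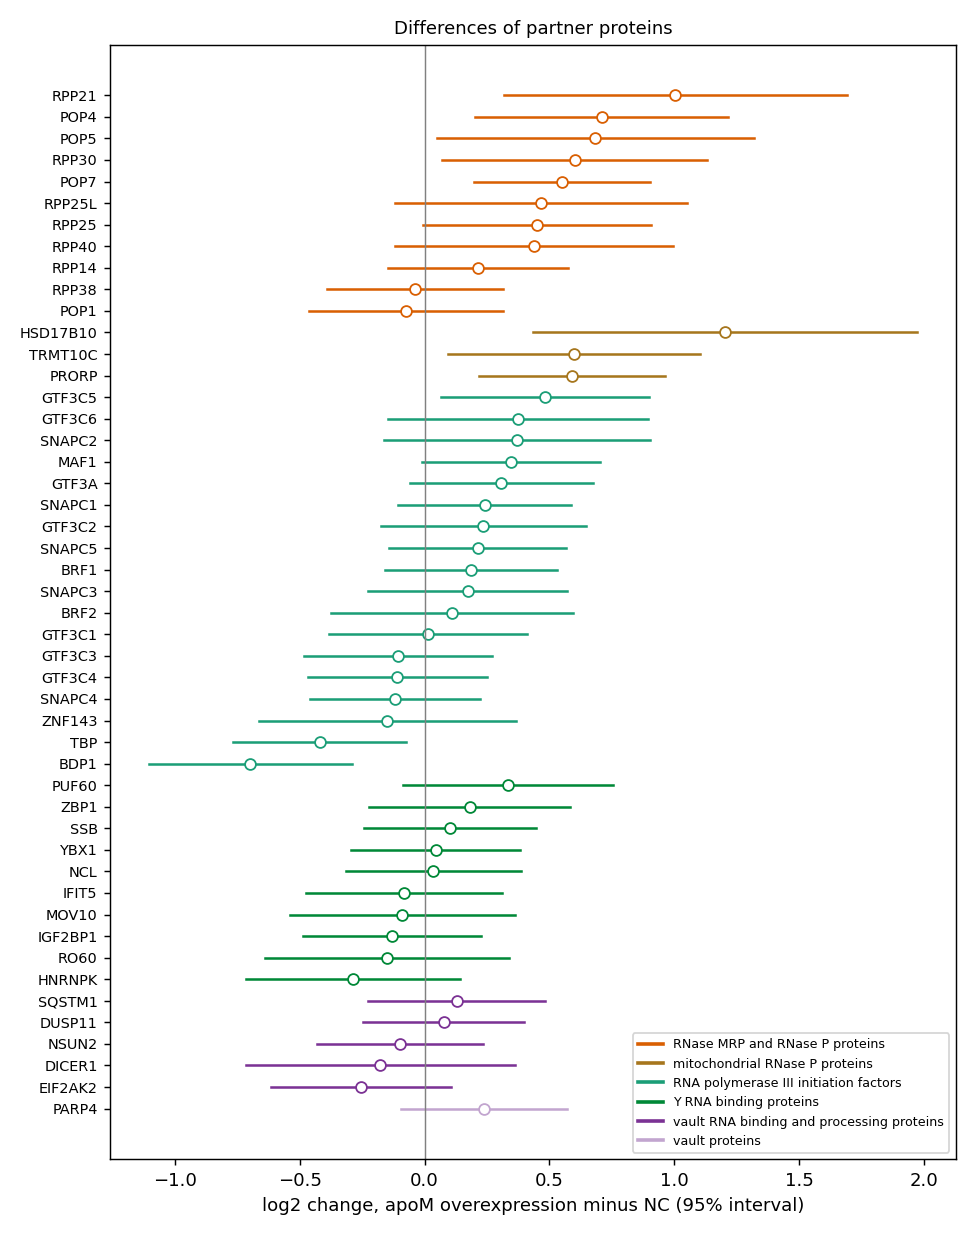
Log2 difference, apoM overexpression minus NC, with its 95% interval (x axis) for the mRNAs of the 48 partner proteins measured, coloured by list. All points are open because none passed the limma test. RNase MRP, RNase P and mitochondrial RNase P proteins lie mostly right of 0, and BDP1 at -0.70 lies furthest left.

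The 10 genes lie in 5 places of the genome. In the GRCh38.p14 gene table VTRNA1-1, VTRNA1-2 and VTRNA1-3 stand together on chromosome 5 between ZMAT2 and PCDHA1, VTRNA2-1 on chromosome 5 between TGFBI and SMAD5, and the 4 Y RNA genes on chromosome 7 between EZH2 and PDIA4. RMRP lies on chromosome 9 between SIT1 and CCDC107, and RPPH1 on chromosome 14 between CCNB1IP1 and PARP2, with which it is known to share a promoter region. Of these 10 neighbours 8 were measured, and their median difference was 0.03. None of the 8 passed, where 2.06% of all genes passed in either direction, so so few genes would seldom hold a call. ZMAT2 differed by 0.05, EZH2 by -0.22, PDIA4 by 0.0036, SIT1 by -0.17, CCDC107 by 0.07 and PARP2 by 0.10. SMAD5 had the largest of the 8, -0.60 (SE 0.17, adjusted p = 0.0875), and TGFBI 0.41 (adjusted p = 0.288).

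Several other classes of short non-coding RNA held many genes that rose with apoM overexpression, and the 10 genes themselves are 84 to 341 bases long in the same table. Of 5771 other genes of 400 bases or less that are not protein-coding, 308 rose (5.34%) and 30 fell, with a median difference of 0.13. H/ACA snoRNAs and Cajal body RNAs had 37 rises of 95 (38.9%) and a median of 0.87, C/D box snoRNAs 27 of 152 (17.8%) and 0.32. U1 and U2 snRNA genes and pseudogenes had 30 of 175 (17.1%) and a median of 0.52, and 5S rRNA genes and pseudogenes 73 of 484 (15.1%) and 0.28. RNA polymerase III makes 5S rRNA too. Whether the 5S pseudogenes are transcribed, or their features read the parent RNA, was not tested. MicroRNA genes, with a median gene length of 81 bases in the gene table, had 2 rises and 17 falls of 1497 and a median of -0.04. No test sets the 10 genes apart from these classes. The part that transcript length plays in the differences was not tested. With the arrays centred on those short genes, a setting added once the data had been seen, 5 of the 10 passed and the median of the 10 was 1.35.

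The arrays of a group were not alike. When each gene's 6-array mean was subtracted, the median of the 10 genes was 0.87, 0.83 and 0.44 on apoM overexpression replicates 1, 2 and 3. On NC replicates 1, 2 and 3 it was -1.22, -0.87 and -0.26. NC replicate 3 was the highest NC array in 8 of the 10 genes, and apoM overexpression replicate 3 the lowest of its group in 8. The mRNAs of RNase MRP and RNase P proteins were at 0.24, 0.22 and 0.13 on the apoM overexpression arrays, against -0.45, -0.39 and 0.14 in NC. For them, NC replicate 3 stood among the apoM overexpression arrays. What sets NC replicate 3 apart was not tested.

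**Figure D4:**
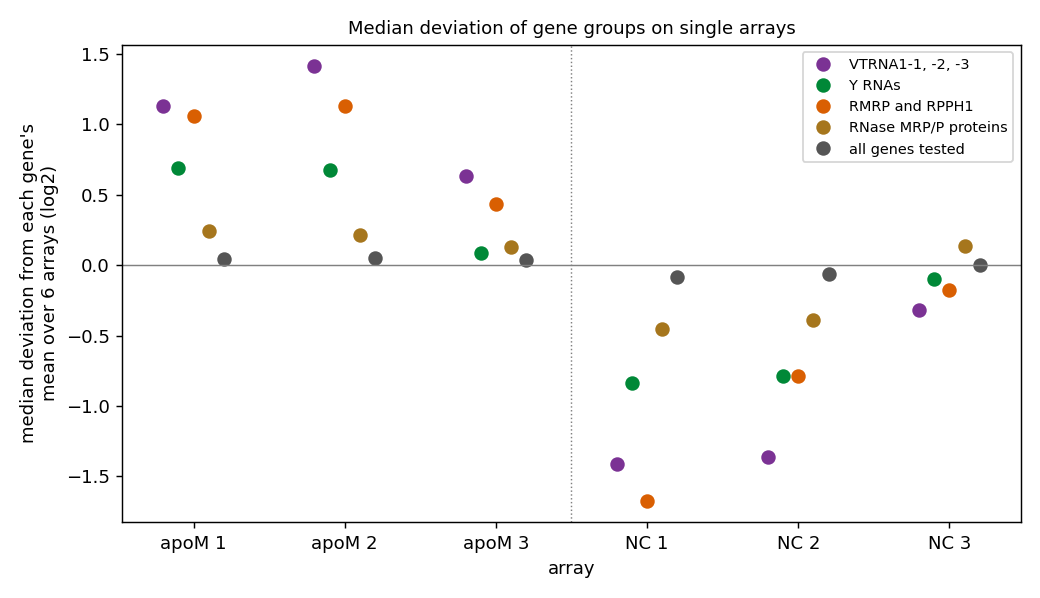
Median, over the genes of a group, of the log2 value minus that gene's 6-array mean (y axis) on each array (x axis) for 4 groups of genes and for all genes tested. The VTRNA1 group, the Y RNAs and the pair of RMRP and RPPH1 lie above 0 on the 3 apoM overexpression arrays and below 0 on the 3 NC arrays, closest to 0 on replicate 3 of each group.

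The calls depended on which array was left out, while the differences of 9 of the 10 genes kept their sign. None of the 10 passed when apoM overexpression replicate 1, apoM overexpression replicate 2 or NC replicate 2 was dropped. VTRNA1-3 alone passed on dropping NC replicate 1, and 3 genes on dropping apoM overexpression replicate 3. As many as 8 passed on dropping NC replicate 3. The median difference of the 10 genes ran from 1.16 without NC replicate 1 to 1.73 without NC replicate 3. VTRNA2-1 ran from -0.11 to 0.13 and changed sign. Each of these fits rests on 5 arrays.

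**Figure D5:**
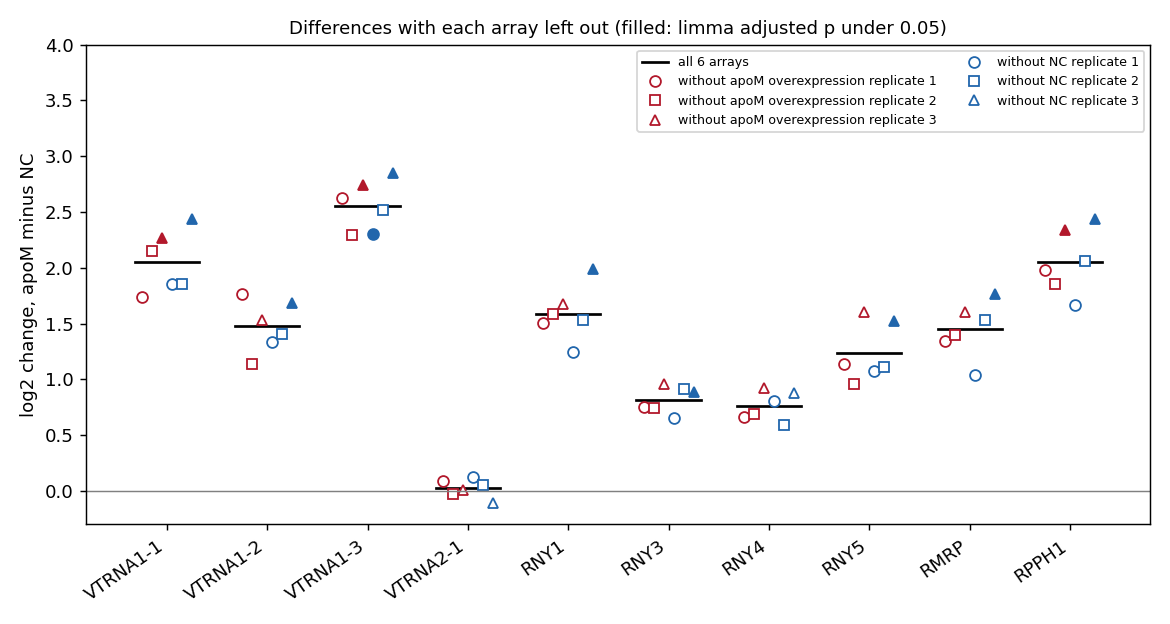
Log2 difference, apoM overexpression minus NC (y axis), of each of the 10 RNAs (x axis) with all 6 arrays (black line) and with each array left out (symbols); filled symbols passed limma at an adjusted p of 0.05. The 8 genes filled for NC replicate 3 left out are all but VTRNA2-1 and RNY4.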

How the data were processed

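Biotin-labelled RNA from 6 samples of Caco-2 cells was measured on Affymetrix arrays, 3 per group. The authors deposited 1 log2 value per feature and array (the scale is inferred from the values). The submitters' processing notes name Affymetrix Expression Console as the software; its version, the normalization and the genome build are not stated in the sources used. The values were not normalized again, and no feature was called absent. The number of arrays limits the precision.

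Features were named through the platform annotation: 36176 have 1 symbol, 1119 have several, and 98455 have none here. The brightest one-symbol feature of each gene over the 6 arrays gave 33616 genes. Differences, apoM overexpression minus NC, were tested with limma 3.58.1 under R 4.3.3 (lmFit, eBayes, two-sided, Benjamini-Hochberg over all genes, threshold 0.05), a procedure tested on simulated data. Differences between paired genes used exact permutation. Lists are described by counts and medians. Figures were drawn with matplotlib 3.10.9.

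The members and lists were chosen with earlier results of these data known. All 10 members, the 8 other RNA polymerase III transcripts measured and the neighbouring genes are named. Of the protein lists, up to 3 with the smallest p are named, besides RO60, SSB, POP1 and MAF1, named for their roles. KRT8, KRT18, EPCAM, GTF3A and SNAPC1 were named after their values were seen. The alternatives were quantile normalization, array medians subtracted, the mean of a gene's features, all features, genes above the median level, array weights, a robust eBayes fit with a trend, a threshold of 0.1, dropping each array in turn and blocking on replicate number. Centring on short genes was added after seeing the data. Gene lengths, order and biotypes come from the GRCh38.p14 gene table. Sequences of the members and a promoter motif search were not used here.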

Additional observations from a re-analysis of the deposited data

How the results depend on the processing

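The median difference of the 10 RNAs stayed between 1.16 and 1.73 over all alternatives tried, whereas counts of calls moved. The number of the 10 past the threshold, 5 with all arrays, was 0 when all features were tested together, 9 with array weights, 9 at an adjusted p of 0.1 and 0 to 8 with an array left out. The number among the partner proteins and other RNA polymerase III transcripts, counted as 1 set, 4 with all arrays and all of them transcripts, was 0 with all features, 8 at an adjusted p of 0.1 and 0 to 10 with an array left out. The number of all genes, 691, was 2 with all features (brightest feature of each gene), 1730 among genes above the median level, 1251 with trend and robust, 1679 with array weights, 2327 at an adjusted p of 0.1 and 2 to 2358 with an array left out. Testing all features or fewer genes changes the multiple-testing burden, and a left-out array the residual degrees of freedom. Testing all features also changed the standard errors from eBayes, for VTRNA1-3 from 0.300 to 0.315. Other causes were not tested. With the replicate number as a block, which the data do not bear out as a pairing, 1 of the 10 (VTRNA1-3), 0 of these partners and transcripts and 50 of all genes passed; the deviations of same-numbered samples correlated at -0.0735, 0.0332 and -0.0691 over genes. The difference of VTRNA2-1, 0.02 with all arrays, was -0.0193 with quantile normalization, -0.0118 with array medians subtracted, -0.0049 with array weights and -0.095 with arrays centred on short genes, and ran from -0.11 to 0.13 with an array left out. Of single genes under the alternatives, 30 results were lost, 13 gained and 6 turned sign, the last all of VTRNA2-1; 99 kept sign and call. VTRNA1-2 and VTRNA2-1 were not tested among genes above the median level. Signal over background was not in the table, which limits what the dim VTRNA2-1 and VTRNA1-2 can show. The same limit touches VTRNA1-1 and VTRNA1-3 in NC. On NC replicate 1 they read 4.95 and 4.68, not far above the array medians of 4.48 to 4.53.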

Other observations

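Among genes above the median level, the 3 whose log2 values over the 6 arrays were most like VTRNA1-3 were RNA5SP71, a 5S rRNA pseudogene, RNU1-19P, a U1 snRNA pseudogene, and NRBP1, with Pearson correlations of 0.9987, 0.9986 and 0.9977. For RNY1 they were RNVU1-19, a variant U1 snRNA, RPL18P13 and ARPC3, an actin-nucleating subunit, at 0.9992, 0.9990 and 0.9986. For RPPH1 they were CDK4, the kinase that acts at the start of the cell cycle, RN7SKP152 and the histone gene H2BC4, at 0.9995, 0.9993 and 0.9992. The 6 points fall into 2 groups and share the arrays, so these values describe order and size on these arrays only. RNA5SP71 had a difference of 1.65, RNVU1-19 of 1.63 and CDK4 of 0.77 (limma adjusted p = 0.0191, 0.0395 and 0.0674).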
